A study of Homo sapiens with 15 samples.

Results

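MHC class I antigen presentation genes were followed across 15 arrays of human umbilical vein endothelial cells (HUVEC) and T-cell exosome RNA. The list named 9 genes: B2M, HLA-B, HLA-C, HLA-E, HLA-F, TAP1, TAP2, TAPBP and NLRC5. A gene was measured where a probeset carried its symbol alone, and where several did, the one whose mean over the 15 arrays was highest stood for it. That left 5 of the 9, B2M, TAP1, TAP2, TAPBP and NLRC5, of 18417 genes in all. HLA-B, HLA-C and HLA-F lay on probesets that carried several symbols, since HLA genes share sequence, and HLA-E was on no named probeset, so the heavy chains of the list were passed over and are not analysed here.

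The study asked how exosomes of T cells with and without CD47 act on endothelial cells, and how the RNA of the exosomes compares. Exosomes, small membrane vesicles, were precipitated from medium conditioned by Jurkat cells (JK), a human T-cell leukaemia line, or by JINB8 cells, its CD47-deficient mutant. HUVEC, which the labels call an endothelial cell line, were left untreated (3 arrays), or kept for 6 h in endothelial growth medium with JK exosomes (3 arrays) or JINB8 exosomes (3 arrays). RNA of the JK and JINB8 exosomes themselves gave 3 arrays each, and all 5 groups were labelled from total RNA that kept small RNAs. JINB8 is 1 mutant line, so the loss of CD47 cannot be told apart from other differences between it and Jurkat. The labels do not say whether the 3 samples of a group came from separate cultures, so the p-values cover the spread between the deposited arrays, part or all of which may be technical. A lower level in bulk RNA cannot tell fewer cells of a type from less RNA per cell.

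In antigen presentation by MHC class I, the proteasome cuts proteins inside the cell into peptides, which the TAP1 and TAP2 transporter pumps into the endoplasmic reticulum. There tapasin, the product of TAPBP, bridges the transporter to a class I heavy chain bound to B2M, the light chain, until a peptide is loaded and the complex leaves for the cell surface. NLRC5 is a transactivator of class I genes, and interferons raise the whole pathway in endothelial cells, which display class I molecules to T cells.

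B2M is at chromosome 15, 44711517 to 44718145, and NLRC5 is at chromosome 16, 56989557 to 57083520, in GRCh38.p14. TAP1 (32845209 to 32853704), TAP2 (32821831 to 32838739) and TAPBP (33299694 to 33314078) are all on chromosome 6. The RefSeq promoter table held 4 of the 5 measured genes, and NLRC5 was not in it. The stretches that follow are shown because they hold letters like those that interferon-regulated and NF-kB factors bind in class I genes. Each is 100 bases, written 5′ to 3′ on the gene's strand, with matches to either motif in capitals.
B2M, chr15:44711328-44711427, plus strand: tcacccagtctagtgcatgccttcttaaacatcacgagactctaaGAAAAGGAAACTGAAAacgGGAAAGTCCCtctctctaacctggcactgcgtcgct
TAP1, chr6:32853784-32853883, minus strand: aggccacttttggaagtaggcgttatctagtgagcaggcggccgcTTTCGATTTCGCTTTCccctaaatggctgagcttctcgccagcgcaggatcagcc
TAP2, chr6:32838743-32838842, minus strand: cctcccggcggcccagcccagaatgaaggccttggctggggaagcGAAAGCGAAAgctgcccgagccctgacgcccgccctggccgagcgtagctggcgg
TAPBP, chr6:33314079-33314178, minus strand: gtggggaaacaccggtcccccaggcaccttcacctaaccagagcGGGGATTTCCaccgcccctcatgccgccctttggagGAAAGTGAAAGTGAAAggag

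The motifs searched on both strands were GAAA, any 2 bases and GAAA, a core of the interferon-stimulated response element, and GGG, any 2 bases and TTTCC, which is like an NF-kB site. The first is in 1255 of 35116 RefSeq promoters of 300.0 bases (3.57%) and the second in 671 (1.91%). B2M holds 2 overlapping cores, GAAAAGGAAA and GAAACTGAAA, from 144 to 129 bases before its start, and GGAAAGTCCC, an NF-kB-like match on the other strand, from 125 to 116 bases before it. TAP1 holds 2 overlapping cores on the other strand from 134 to 119 bases before its start, and a GGGACTTTCC nearer the start, at 72 to 63 bases, outside the stretch shown. TAP2 holds 1 core, from 58 to 49 bases before its start, and no NF-kB-like match. TAPBP holds 2 overlapping cores within 20 bases of its start and GGGGATTTCC from 56 to 47 bases before it. PSMB9, an immunoproteasome subunit gene that starts 488 bases from TAP1 on the opposite strand, had neither motif in its window, nor had a second TAP1 promoter in the table. The TAP1 matches lie between the starts of TAP1 and PSMB9 but outside the PSMB9 window. The absence therefore holds for that window alone and not for all bases upstream of PSMB9. A match describes letters and is not a measured site.

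Across the whole series, the values as deposited are log2 intensities without detection calls, so it is not known which signals stood above background. The medians of the untreated arrays averaged 6.97 ± 0.058 (SD, n = 3), against group means of 5.11 to 5.14 in the other 4 groups, and array set and treatment therefore cannot be told apart in comparisons with untreated HUVEC. Those comparisons were made after quantile normalization over the 9 HUVEC arrays, which gives each array the same distribution; the others used the values as deposited. Within groups, arrays correlated at 0.986 to 0.995 over all probesets and no pair was identical. All 12 endothelial markers and 13 of 14 T-cell markers were measured. Summed over the endothelial markers, the deposited level was 112.0 to 131.2 in the HUVEC arrays and 63.0 to 64.7 in the exosome arrays. Summed over the T-cell markers, it was 75.1 to 78.7 in untreated HUVEC, 51.6 to 52.8 in treated HUVEC and 72.9 to 75.7 in exosome RNA, so the untreated and exosome arrays overlapped on this scale. After quantile normalization over the 15 arrays the T-cell sum was 57.1 to 59.6 in all HUVEC arrays and 86.6 to 89.8 in exosome RNA. CD47, which the JINB8 line lacks, read 4.72, 4.69 and 4.72 in JK exosome RNA and 4.58, 4.67 and 4.94 in JINB8 exosome RNA. The CD47 values therefore overlapped and did not separate the exosome labels (log2 difference 0.02 ± 0.09 SE, adjusted p = 0.988, limma).

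In the deposited values, all 5 measured genes stood highest in untreated HUVEC. B2M, the light chain of every class I molecule, read 10.90, 10.78 and 10.60 in untreated cells. With JK exosomes B2M read 9.12, 9.11 and 9.12, and with JINB8 exosomes 8.95, 8.97 and 8.83. In exosome RNA it read 4.25, 4.32 and 4.14 for JK and 4.30, 4.31 and 4.58 for JINB8. The 3 HUVEC groups of B2M did not overlap, and the exosome groups, which overlapped each other, lay far below them.

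TAPBP encodes tapasin, which holds the class I heavy chain at the peptide transporter. TAPBP read 11.65, 11.49 and 11.67 in untreated HUVEC, then 9.97, 9.88 and 9.94 with JK exosomes and 9.90, 9.97 and 9.85 with JINB8 exosomes. Exosome RNA gave TAPBP values of 6.61, 6.61 and 6.67 for JK and 6.62, 6.55 and 6.77 for JINB8. Values of TAPBP in the treated groups overlapped, as did those in the exosome groups.

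TAP1 and TAP2 encode the 2 subunits of the peptide transporter. TAP1 read 9.93, 9.89 and 9.53 in untreated HUVEC, 7.96, 8.004 and 8.16 with JK exosomes and 7.67, 7.83 and 7.94 with JINB8 exosomes. Its exosome RNA values were 6.40, 6.31 and 6.33 for JK and 6.49, 6.40 and 6.28 for JINB8. The 3 JINB8-treated arrays of TAP1 lay under the 3 JK-treated ones by a narrow margin. TAP2 read 8.50, 8.12 and 8.31 in untreated HUVEC, 6.67, 6.73 and 6.76 with JK exosomes and 6.26, 6.65 and 6.77 with JINB8 exosomes. In exosome RNA TAP2 read 5.63, 5.83 and 5.50 for JK and 5.61, 5.75 and 5.77 for JINB8. One JINB8-treated array, at 6.26, gave TAP2 most of the spread of its group.

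NLRC5, the class I transactivator, had another order. It read 7.53, 7.50 and 7.49 in untreated HUVEC, 5.47, 5.44 and 5.59 with JK exosomes and 5.12, 5.41 and 5.39 with JINB8 exosomes. In exosome RNA NLRC5 read 5.84, 5.87 and 5.82 for JK and 5.80, 5.80 and 5.83 for JINB8. Of the 5 genes it was the one whose exosome RNA values all lay above those of treated HUVEC on this scale.

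**Figure D1:**
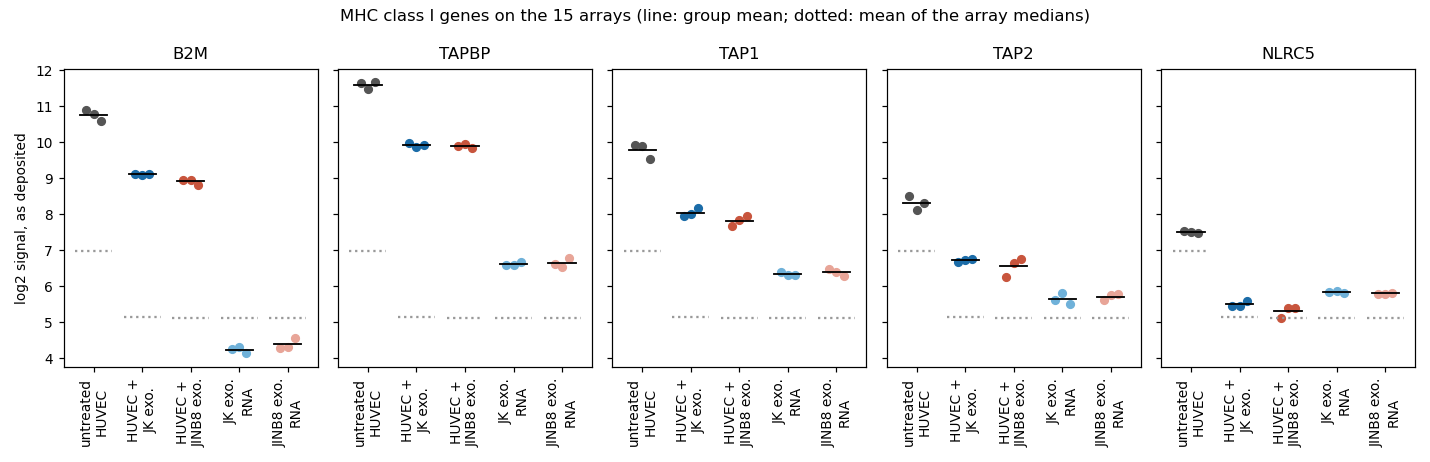
Deposited log2 signal (vertical axis) of B2M, TAPBP, TAP1, TAP2 and NLRC5 on each of the 15 arrays by group; solid lines are group means and dotted lines the group means of the array medians. Untreated HUVEC are highest for each gene, as are their array medians, and NLRC5 is the gene whose exosome RNA values, 5.80 to 5.87, lie above those of treated HUVEC.

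The first comparison asked whether JK exosomes changed these genes in HUVEC. On the quantile-normalized scale B2M and TAPBP fell, and TAP1, TAP2 and NLRC5 did not pass the test. Of the 5 genes 2 were called lower and 0 higher, at a Benjamini-Hochberg adjusted p under 0.05 over 18417 genes. Of all genes 22.4% were called lower and 26.2% higher in this comparison, so a call alone was common. The members' median log2 difference was -0.22, and that of all genes 0.02.

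TAPBP read 10.73, 10.67 and 10.87 in untreated HUVEC and 10.42, 10.37 and 10.38 with JK exosomes on that scale. It fell by 0.37 ± 0.08 (SE; adjusted p = 0.00229, limma, lower in 3 of 3 arrays). B2M read 9.86, 9.89 and 9.72 in untreated HUVEC and 9.59, 9.63 and 9.60 with JK exosomes, a fall of 1.16-fold (log2 difference -0.22 ± 0.08 SE, adjusted p = 0.0381, limma). The gap between the lowest untreated and the highest treated B2M array was smaller than the range within the untreated group. The B2M call was lost when any of 6 of the 9 arrays was left out (untreated replicate 1 or 2, any JK-treated replicate, or JINB8-treated replicate 2), with adjusted p up to 0.104.

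NLRC5 also lay below its untreated values in all 3 JK-treated arrays, at 6.06, 6.00 and 6.19 against 6.31, 6.32 and 6.31. Its log2 difference of -0.23 ± 0.09 (SE) had an adjusted p of 0.0572 (limma). TAP1 overlapped between the groups, at 8.45, 8.55 and 8.66 against 8.82, 8.92 and 8.60, with a log2 difference of -0.22 ± 0.11 (SE; adjusted p = 0.106). TAP2 overlapped too and differed by 0.05 ± 0.12 (SE; adjusted p = 0.751), with a 95% interval of -0.22 to 0.33. In 3 of the 5 genes the treated arrays lay wholly below the untreated ones, against 25.9% of all genes, and in 0 wholly above, against 30.2%.

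JINB8 exosomes were compared with the same 3 untreated arrays, so the 2 comparisons share their controls. B2M, TAPBP, TAP1 and NLRC5 fell, 4 of 5 genes, where 23.3% of all genes were called lower and 26% (4791 genes) higher. The median log2 difference of the 5 was -0.42, and that of all genes 0.02. In each of those 4 genes the treated arrays lay below all untreated arrays, as did 27.1% of all genes, and in 0 of the 5 above them, as did 30.5%.

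B2M read 9.42, 9.43 and 9.31 with JINB8 exosomes and fell by 0.44 ± 0.08 (SE; adjusted p = 0.000768, limma), which is 1.36-fold. TAPBP, at 10.35, 10.36 and 10.30, fell by 0.42 ± 0.08 (SE; adjusted p = 0.000951). In both genes the 3 treated arrays lay closer to each other than the untreated ones did.

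TAP1 read 8.17, 8.32 and 8.44 with JINB8 exosomes and fell by 0.47 ± 0.11 (SE; adjusted p = 0.00373). NLRC5 read 5.78, 6.06 and 6.01 and fell by 0.36 ± 0.09 (SE; adjusted p = 0.0065). TAP2, at 6.86, 7.23 and 7.32 against 7.31, 7.01 and 7.28 in untreated cells, overlapped and differed by -0.06 ± 0.12 (SE; adjusted p = 0.708, 95% interval -0.34 to 0.21). The transporter's 2 subunits thus had different calls with JINB8 exosomes; the difference between their changes was not tested.

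**Figure D2:**
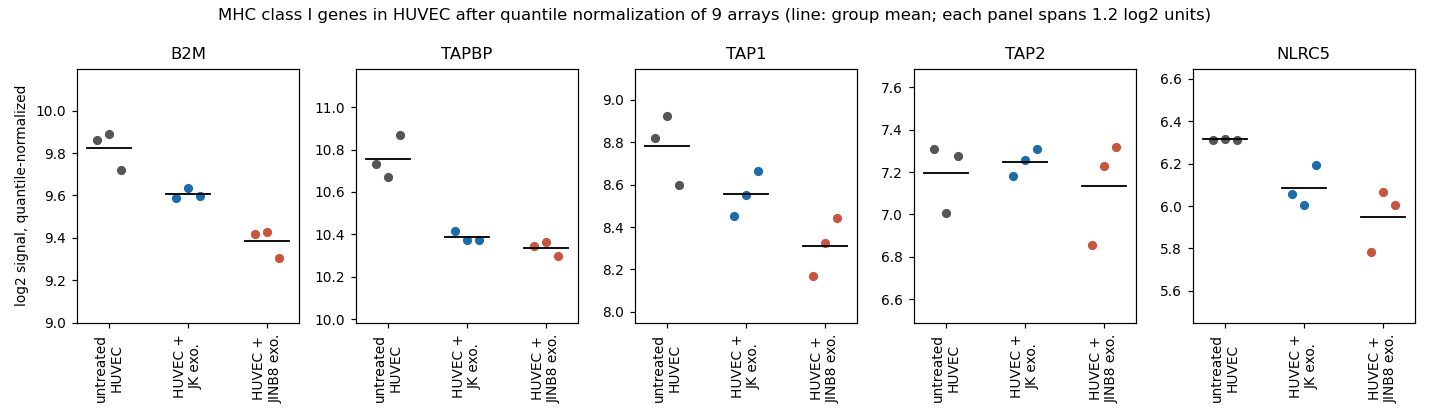
Quantile-normalized log2 signal (vertical axis, each panel on its own range) of the 5 genes on the 9 HUVEC arrays by treatment; lines are group means. B2M, TAPBP and NLRC5 lie below the untreated arrays with both kinds of exosome, TAP1 with JINB8 exosomes, and TAP2 overlaps throughout.

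These directions rested on how the arrays were brought to one scale. Centring each array on its median in place of quantile normalization turned B2M, TAP1 and TAPBP to 0.14, 0.045 and 0.11 with JK exosomes, with 0 of 5 called. With JINB8 exosomes median centring left NLRC5 called lower and moved TAP1 to -0.13 (adjusted p = 0.362), B2M to -0.0071 (adjusted p = 0.955) and TAPBP to 0.14. In the deposited values the 5 genes were at -2.01 to -1.59 with JK and -2.20 to -1.70 with JINB8 exosomes, where 18289 and 18252 of all genes were called lower. Median centring also moved the calls over all genes from 54% to 64.3% higher with JK exosomes and from 52.8% to 67.1% with JINB8 exosomes. Against untreated HUVEC, NLRC5 with JINB8 exosomes was the one called member that kept its call under all 12 alternatives and when each of the 9 arrays was left out. B2M, TAP1 and TAPBP with JINB8 exosomes, and TAPBP with JK exosomes, lost theirs with median centring alone. The deposited scale was among these alternatives, and nearly all genes were called lower on it, so it could not set NLRC5 apart.

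**Figure D3:**
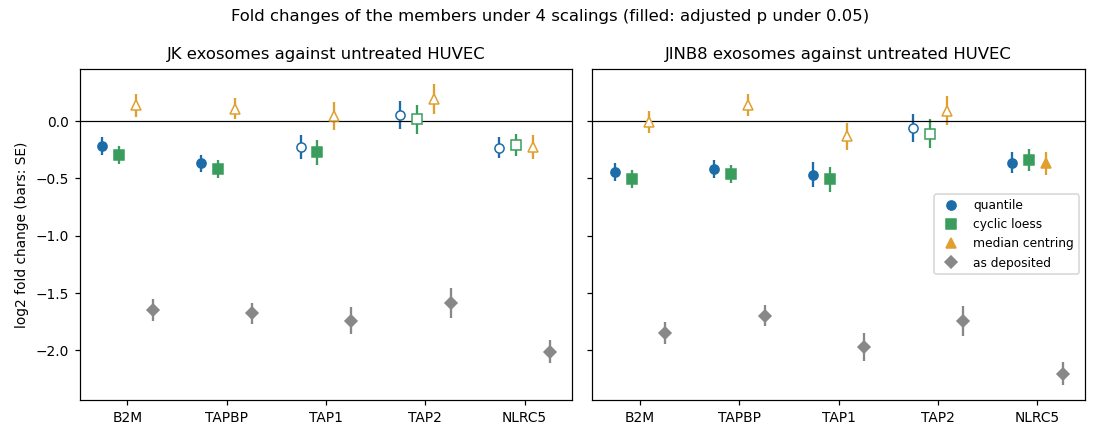
Log2 difference from untreated HUVEC (vertical axis, bars are SE) of the 5 genes with JK exosomes (left) and JINB8 exosomes (right) under 4 scalings; filled symbols have an adjusted p under 0.05. With JK exosomes B2M, TAP1 and TAPBP cross 0 between quantile normalization and median centring, at -0.22 and 0.14 for B2M.

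The comparison of JINB8 with JK exosomes on HUVEC asks whether the producing line mattered. Its log2 differences are between the treated groups alone. The untreated arrays were in the same model, so they entered the estimate of spread behind its errors, intervals and p-values. None of the 5 genes passed, and 0 of 18417 genes did (0%) by limma, with 1678 at an unadjusted p under 0.05 and 0 of the 5 among them. With limma's array weights 377 genes were called, and with a trend and robust fitting 23, again with 0 of the 5. TAP1 differed by -0.23 ± 0.12 (SE; 95% interval -0.49 to 0.03, adjusted p = 0.598). B2M differed by -0.20 ± 0.10 (SE; interval -0.41 to 0.01, adjusted p = 0.577).

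NLRC5 differed by -0.19 ± 0.10 (SE; interval -0.41 to 0.02, adjusted p = 0.59). TAP2 differed by -0.16 ± 0.13 (interval -0.44 to 0.13, adjusted p = 0.766) and TAPBP by -0.02 ± 0.09 (interval -0.21 to 0.17, adjusted p = 0.968). In B2M, TAP1 and NLRC5 each JINB8-treated array lay below each JK-treated one, 3 of 5 genes against 9.78% of all genes, and in 0 above, against 7.68%. With 3 arrays against 3 an exact two-sided permutation test cannot go below 0.1. B2M, TAP1, TAP2 and NLRC5 kept their direction under all 11 alternatives and all 9 omissions of an array, with no call in any. The intervals allow a fall of up to about 0.4 to 0.5 on the log2 scale in these 4 genes and do not show that the exosomes acted alike.

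**Figure D4:**
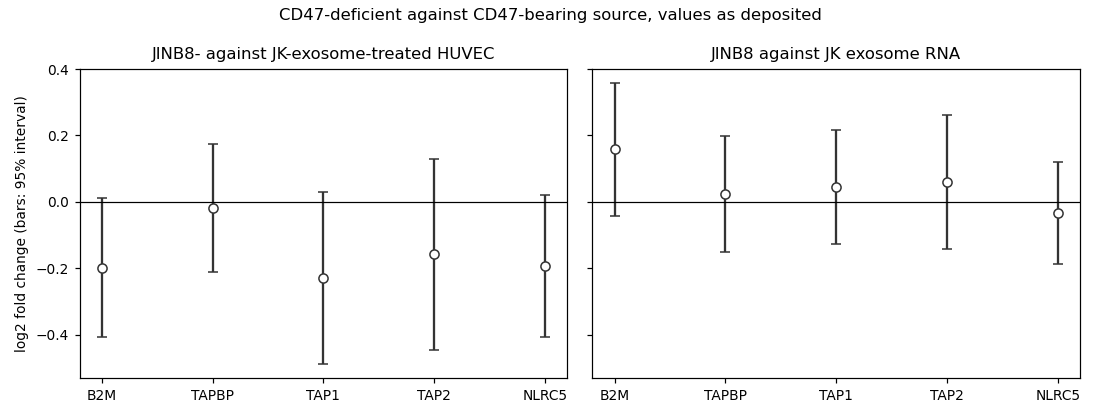
Log2 difference of JINB8 from JK (vertical axis) with its 95% interval for each of the 5 genes, in exosome-treated HUVEC (left) and in exosome RNA (right), from values as deposited. Each interval includes 0, and the HUVEC values run from -0.23 for TAP1 to -0.02 for TAPBP.

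In the RNA of the exosomes themselves none of the 5 genes differed past the test between JINB8 and JK, where 0.668% of all genes were called higher and 0.0109% lower. B2M was the gene furthest from 0, at 0.16 ± 0.09 (SE; 95% interval -0.04 to 0.36, adjusted p = 0.747, limma). TAP2 (0.06 ± 0.09), TAP1 (0.04 ± 0.08), TAPBP (0.02 ± 0.08) and NLRC5 (-0.03 ± 0.07) lay nearer to 0, and all 5 overlapped between the groups, where 7.35% of all genes lay wholly above and 5.52% wholly below. The difference between JINB8 and JK was also compared between treated HUVEC and exosome RNA. For B2M it was 0.36 lower in HUVEC (log2 difference of differences -0.36, unadjusted p = 0.0111, adjusted p = 0.238, limma), and for TAP1 0.27 lower (-0.27, adjusted p = 0.4001), and none of the 5 passed.

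Exosome RNA stood far from the RNA of exosome-treated HUVEC. All 5 genes were called, 4 lower and 1 higher, in a comparison where 49.7% of all genes were called lower and 45.3% higher (94.9% in either direction). The 6 exosome arrays lay wholly below the 6 HUVEC arrays in 4 of the 5 genes and wholly above in 1, against 47.1% and 41.3% of all genes. B2M was 26.0-fold lower in exosome RNA (log2 difference -4.70 ± 0.06 SE, adjusted p = 1.12e-19, limma). TAPBP was 9.72-fold lower (-3.28 ± 0.05, adjusted p = 1.49e-18). TAP1 (-1.56 ± 0.06) and TAP2 (-0.96 ± 0.08) were lower as well, and NLRC5 was higher, by 0.42 ± 0.06 (adjusted p = 3.98e-06).

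The fall of B2M and the rise of NLRC5 kept their direction under all 11 alternatives, B2M between -4.70 and -2.74 and NLRC5 between 0.42 and 1.27. TAP1 and TAP2 did not: quantile normalization of the 12 arrays turned TAP1 to 0.34 (adjusted p = 0.000184) and TAP2 to 0.083. Cyclic loess turned TAPBP to 0.56 as well.

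Markers moved with this comparison. Of 12 endothelial markers 11 were lower in exosome RNA on the deposited scale. Quantile normalization gave 9 lower and 2 higher, median centring 11 lower and 1 higher, and cyclic loess 9 lower and 3 higher. All 13 measured T-cell markers were higher on the deposited scale and under quantile normalization, median centring and cyclic loess. In the deposited values antigen-presenting and myeloid markers were higher in 8 of 9 and lower in 1. Mural and fibroblast markers were higher in 7 of 10 and lower in 2, so markers of other cell types rose as well. The part of these markers in the members' differences was not tested.

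The rest of the pathway gives the setting for these genes. Of the further pathway genes 47 were measured. Of all genes 26.2% were called higher and 22.4% lower with JK exosomes, and 26% and 23.3% with JINB8 exosomes. With JK exosomes 14 of the 47 were higher and 12 lower than untreated HUVEC, with a median of 0.05. JINB8 exosomes gave 11 higher and 16 lower, with a median of -0.08. After median centring these counts were 20 and 8 with JK and 19 and 8 with JINB8. The quantile-normalized counts by role that follow stand beside the same shares of all genes.

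Among class I-like chains, 1 of 6 rose and 1 fell with each exosome. MR1, which presents vitamin B metabolites to MAIT cells, differed by -0.79 in JK-treated cells (adjusted p = 0.000161) and by -0.59 in JINB8-treated ones (adjusted p = 0.0011). FCGRT, the neonatal Fc receptor's heavy chain, was 0.61 higher with JK exosomes (adjusted p = 0.000338) and 0.36 with JINB8 exosomes (adjusted p = 0.00822, limma). Both keep their direction under median centring and cyclic loess.

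In peptide loading and trimming 5 of 9 genes rose and 1 fell with JK exosomes, and 4 rose and 1 fell with JINB8. NRDC, the peptidase nardilysin, rose by 0.46 with JK exosomes (adjusted p = 0.000743, limma) and by 0.39 with JINB8 exosomes (adjusted p = 0.00192). Of the immunoproteasome and its activator 2 of 6 rose and 2 fell with JK, and 1 rose and 3 fell with JINB8. POMP, the proteasome maturation protein, differed by -0.63 with JK (adjusted p = 0.000104) and -0.75 with the JINB8 kind (adjusted p = 2.84e-05), and after median centring it was at -0.15 and -0.19 and not called. Of the 3 standard catalytic subunits 0 were called with JK exosomes and 1 was lower with JINB8, and after median centring 2 and 1 were higher and 0 lower.

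PSMB9, named here for its place beside TAP1, fell by 0.43 with JINB8 exosomes (adjusted p = 0.00748) and was at -0.20 with JK exosomes (adjusted p = 0.168). Its deposited values were 4.95, 5.04 and 4.87 in JK-treated and 4.47, 4.82 and 4.67 in JINB8-treated HUVEC. The JINB8-treated values of PSMB9 lay wholly below the JK-treated ones, as did those of 9.78% of all genes. Their difference of -0.30 did not pass (adjusted p = 0.452, limma). These PSMB9 values lay below the mean array medians of 5.14 and 5.11, and whether they stood above background is not known.

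Of the transcription factors of the pathway 4 of 12 rose and 5 fell with JK exosomes, and 3 rose and 5 fell with JINB8. Median centring turned that balance, to 5 higher and 2 lower with JK and 4 higher and 2 lower with JINB8. RELA, the p65 subunit of NF-kB, fell by 0.81 with JK (adjusted p = 1.23e-05) and 0.76 with JINB8 exosomes (adjusted p = 1.76e-05). NFYB, a subunit of the CCAAT-binding factor NF-Y, fell by 0.93 (adjusted p = 0.000223) and 1.04 (adjusted p = 9.48e-05). IRF2, an interferon regulatory factor, rose by 0.58 (adjusted p = 9.59e-05) and 0.50 (adjusted p = 0.000275). RELA, NFYB and IRF2 kept these calls under median centring and cyclic loess.

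Of interferon receptors and their kinases 1 of 7 rose and 2 fell with JK, and 1 rose and 3 fell with JINB8, while after median centring 2 were higher and 0 lower with each. Of 4 negative regulators 1 rose and 1 fell with JK, and 1 rose and 2 fell with JINB8, which cyclic loess turned to 2 higher and 1 lower.

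**Figure D5:**
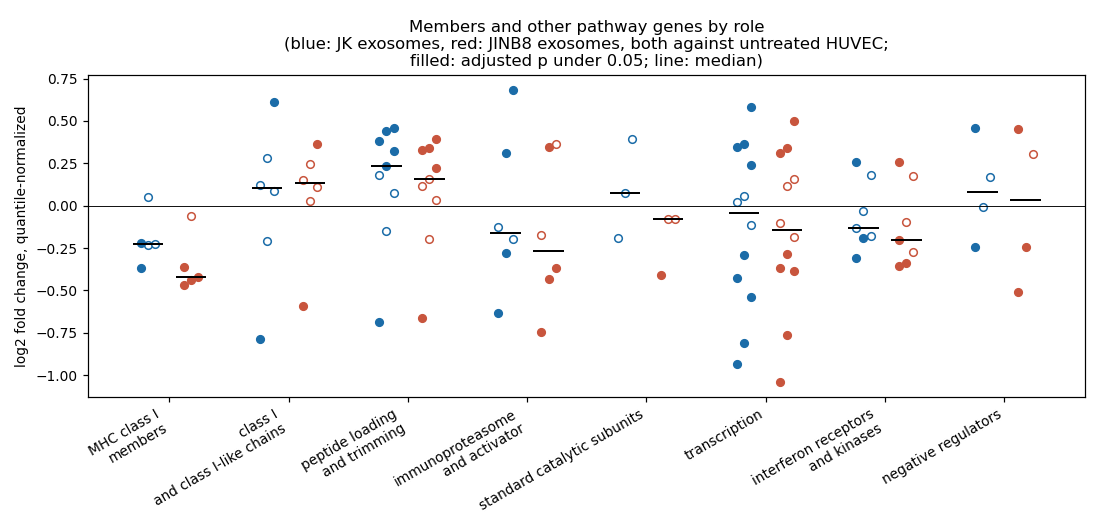
Log2 difference from untreated HUVEC (vertical axis, quantile-normalized) of the 5 members and the 47 other pathway genes by role, with JK exosomes in blue and JINB8 exosomes in red; filled points have an adjusted p under 0.05 and lines are medians. Among the other pathway genes filled points lie on both sides of 0, 14 above and 12 below with JK exosomes. The called members all lie below. Of all genes 26.2% were called higher and 22.4% lower with JK exosomes.

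Between JINB8- and JK-treated HUVEC 0 of the 47 pathway genes passed; USP18, a brake on interferon signalling, had the largest difference of those with the smallest p, -0.54 (adjusted p = 0.457). The smallest p there was that of PSMB9, given with its values above at -0.30 (adjusted p = 0.452). The other genes of the 6 with the smallest p were FCGRT at -0.24, MICA at 0.25, PSMB5 at -0.22 and PSME2 at -0.33, with adjusted p from 0.516 to 0.585. Between the exosome RNAs POMP was higher in JINB8, by 0.48 (adjusted p = 0.0328, limma), and the other 46 did not pass. Of all genes 0.668% were called higher and 0.0109% lower in that comparison.

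Of all genes 49.7% were called lower and 45.3% higher in exosome RNA against treated HUVEC. There 39 of the 47 pathway genes were lower and 6 higher, with a median of -2.14, and under cyclic loess 30 were lower and 14 higher. The 6 with the smallest p were all lower: the chaperones CANX (-6.34) and CALR (-5.17), the interferon receptor IFNAR1 (-4.99), the kinase JAK1 (-4.96), POMP (-4.85) and the standard subunit PSMB5 (-4.44). These 6 kept that direction under quantile normalization, median centring and cyclic loess.

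The standard catalytic subunits were all 3 lower, while the 3 catalytic subunits of the immunoproteasome were higher, as were 45.3% of all genes. The whole list of the immunoproteasome and its activator was split on the deposited scale. Of its 6 genes 3 were higher and 3 lower, with a median of -0.20. PSMB10 was higher by 0.96, PSMB8 by 0.99 and PSMB9 by 0.68, with adjusted p of at most 2.19e-07 (limma). The PSMB8, PSMB9 and PSMB10 rise held under quantile normalization, median centring and cyclic loess; these 3 were singled out after their values were seen. PSMB8 read 4.10 to 4.24 in JK-treated HUVEC and 4.96 to 5.12 in JK exosome RNA, with no overlap. The array medians of those groups averaged 5.14 and 5.11, so the PSMB8 signals were low, and whether they stood above background is not known. Mural and fibroblast markers had a median of 0.81 in the same comparison, within the range of these rises.

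Genes whose promoter holds the interferon-response core were counted beside the members. Of 587 such measured genes 27.8% rose and 21.6% fell with JK exosomes, against 26.5% and 22.5% of 13652 genes with a promoter in the table and no core. With JINB8 exosomes 27.6% rose and 22.0% fell, against 26.4% and 23.4%. The shares with and without the core are near each other. B2M, TAP1 and TAPBP are among the genes with it that were called lower with JINB8 exosomes. TAP2 also holds the core and was not called there (-0.06, adjusted p = 0.708, limma).

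Genes with several probesets were compared for agreement. B2M and NLRC5 had 1 probeset each, and the 3 of TAP1 held identical values. The 3 probesets of TAPBP gave -0.53 to -0.40 with JK exosomes after normalization over all probesets, all called, and -3.28 to -2.50 in exosome RNA. The 3 of TAP2 gave -1.13 to -0.90 in exosome RNA.

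Over the 15 arrays, quantile-normalized together, B2M followed TAPBP (Pearson r = 0.95) and ran opposite to NLRC5 (r = -0.97). TAP1 followed NLRC5 (r = 0.74) and ran opposite to B2M (r = -0.63). These signs were computed on that scaling alone. In the deposited values TAP1 and B2M were both lower in exosome RNA than in treated HUVEC, at -1.56 and -4.70. TAP2 correlated at -0.25 to 0.31 with the other 4 genes. The 5 genes most like B2M were CCNC, RPN2, EIF2S1, GPR108 and PEX3, each at r = 0.999. Those most like TAP1 were PSG11 (0.914), SPATA31H1 (0.912), ZPR1 (0.912), TGFA (0.911) and TRPV2 (0.903). These correlations describe 15 arrays that fall into 5 groups of cells and exosomes.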

How the data were processed

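The deposited values are log2 array intensities, made by the authors with Affymetrix Expression Console per the submitters' processing notes; the sources used here give neither its version nor how, or over which arrays, it normalized. The platform annotation gave 19460 of 33297 probesets 1 symbol, 1754 several and 12083 none; names and promoters came from RefSeq (GRCh38.p14), which 19429 probesets matched. Comparisons were fitted with limma 3.58.1 in R 4.3.3 (lmFit, eBayes), the 9 HUVEC arrays in 1 model and exosome RNA in others, adjusted by Benjamini and Hochberg's method over 18417 genes and called under 0.05. Errors are limma's standard errors; precision is limited by having 3 arrays a group. The fit was tested on simulated data with independent noise, added differences and no shift between array sets. That test says nothing on how the arrays were brought to one scale. All measured members are named, with up to 6 pathway genes of the smallest p per comparison and the 5 genes most like B2M and TAP1. The members and lists were chosen with earlier results of these data known. Alternatives were other normalizations, array weights, trend and robust fitting, a filter leaving out the dimmest 40% of genes, other array sets, other probeset rules, the replicate block and each array left out. In no comparison did every same-numbered pair of arrays deviate together (correlations -0.45 to 0.35), so no pairing was used.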

Additional observations from a re-analysis of the deposited data

How the results depend on the processing

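Of 504 values of the 5 members under alternatives, 456 kept direction and side of the threshold. With JK exosomes the 2 called members became 5 in deposited values, 0 with median centring, 4 with array weights, 1 with the 6 arrays alone, 1 with 15 arrays, and 1 to 3 with an array left out; with JINB8 exosomes the 4 became 1 with median centring and stayed 4 in each omission. In exosome RNA against HUVEC the 5 became 3 against untreated HUVEC, a setting that was also quantile-normalized. Quantile normalization against treated HUVEC gave 2 members higher and 2 lower, and the cause was not tested. Reversals with JK exosomes were TAP2 at -1.59 and CD47 at -1.19 in deposited values, B2M at 0.14, TAP1 at 0.045 and TAPBP at 0.11 with median centring, and TAP2 at -0.043 without untreated replicate 2 (omissions -0.043 to 0.11). With JINB8 exosomes they were CD47 at -1.39 in deposited values and -0.010 with loess, TAP2 at 0.092 and TAPBP at 0.14 with median centring, and TAP2 at 0.077 without JINB8-treated replicate 1 (omissions -0.16 to 0.077). Between treated HUVEC TAPBP moved to 0.033 with median centring, 0.0094 with mean probesets, 0.00099 without JK-treated replicate 1 and 0.0081 without JINB8-treated replicate 3 (omissions -0.049 to 0.0081). Between exosome RNAs TAPBP moved to -0.010 with quantile normalization, -0.0037 with loess, -0.020 with 15 arrays and -0.040 without JINB8 replicate 3 (omissions -0.040 to 0.074), which also moved CD47 to -0.088 (-0.088 to 0.091). TAP2 moved to -0.015 without JK replicate 3 (-0.015 to 0.15) and TAP1 to -0.0035 without JINB8 replicate 1 (-0.0035 to 0.099). In exosome RNA against HUVEC TAP1 turned to 0.34 (quantile), 1.09 (loess), 0.36 (15 arrays) and 0.067 (untreated), TAP2 to 0.083, 0.23, 0.087 and 0.063, and TAPBP to 0.56 with loess. The cause of these shifts was not tested.

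Same-numbered arrays share only a number. With the replicate block 2 members were called with JK exosomes, 4 with JINB8 exosomes, 0 between treated HUVEC, 0 between exosome RNAs and 5 against HUVEC, as without it. The quantile normalization over all probesets was chosen after seeing the data. Without detection calls, signal over background is unknown for every group.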
